A study of Mus musculus with 2 samples.

Results

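DNase-seq maps the places where the nuclease DNase I cuts chromatin more often than its surroundings. In the mouse line MN1, 38156 such sites lay far from any promoter and were called in replicate 1 without a counterpart in replicate 2. They are the peaks of replicate 1 on the 19 autosomes that share not a single base with a peak or a wider hotspot of replicate 2 and whose centre is more than 2.5 kb from every transcription start site (TSS) of the GENCODE M21 annotation. They made up 32.5% of the 117351 distal peaks of replicate 1 on these chromosomes, out of 189930 peaks in its whole list. A further 12808 peaks were also found only in replicate 1 but lay near a TSS, and they are not members. The same rule turned around gave 20828 distal peaks found only in replicate 2, 20.6% of 101351, and 79195 distal peaks of replicate 1 met a peak or hotspot of replicate 2.

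MN1 is described in the labels as an immortalized cell line of strain B6NCrl. The 2 libraries are biological replicates of 1 group, both from cells given 10 nM methyltrienolone, a synthetic androgen, and no untreated library was analysed here. The labels give no tissue and no known age, developmental stage or sex. They give no difference in treatment between the replicates. They name the sequencers HiSeq 2500 and NextSeq 500 for replicate 1 and none for replicate 2, so instrument, culture and replicate cannot be told apart. Read numbers were not used here, and a site without a call in replicate 2 is not shown to be closed there.

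Open sites away from promoters are often enhancers or insulators. Transcription factors bind short DNA words in them, and the DNA stays free of nucleosomes and open to the nuclease. EBF, NFI and RFX factors, AP-1 (dimers of Jun and Fos proteins) and basic helix-loop-helix factors such as NEUROD1, which bind words called E-boxes, are known for opening or holding such sites in neural cells. CTCF binds insulators and the feet of chromatin loops, and the androgen receptor binds the androgen response element (ARE).

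For each of 7 motifs a high-scoring member that holds the motif is printed to show what these sites look like. Each is the 150 bp peak on the plus strand of mm10 (GRCm38), with the matching letters in capitals.
EBF, chr2:150315896-150316045, score 96, intron of 3300002I08Rik: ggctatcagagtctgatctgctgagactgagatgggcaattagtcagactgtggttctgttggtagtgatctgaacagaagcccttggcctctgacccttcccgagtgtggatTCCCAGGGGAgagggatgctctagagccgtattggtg
AP-1, chr5:135531436-135531585, score 101, intron of Hip1: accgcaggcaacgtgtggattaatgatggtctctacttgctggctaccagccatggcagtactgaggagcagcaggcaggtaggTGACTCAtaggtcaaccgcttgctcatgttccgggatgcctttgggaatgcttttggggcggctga
RFX, chr15:59194536-59194685, score 95, intergenic: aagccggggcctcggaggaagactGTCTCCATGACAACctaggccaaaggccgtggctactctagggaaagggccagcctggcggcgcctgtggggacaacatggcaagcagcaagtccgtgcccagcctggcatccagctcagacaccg
NFI, chr19:53427476-53427625, score 86, intergenic: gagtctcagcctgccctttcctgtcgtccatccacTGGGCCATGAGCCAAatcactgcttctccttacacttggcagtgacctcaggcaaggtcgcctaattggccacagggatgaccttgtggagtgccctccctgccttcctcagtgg
PHOX2, chr10:120526696-120526845, score 65, intergenic, nearest to Hmga2: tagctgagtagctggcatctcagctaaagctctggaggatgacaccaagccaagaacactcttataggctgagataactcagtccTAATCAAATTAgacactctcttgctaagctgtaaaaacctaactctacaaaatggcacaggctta
CTCF, chr4:45465136-45465285, score 69, intron of Shb: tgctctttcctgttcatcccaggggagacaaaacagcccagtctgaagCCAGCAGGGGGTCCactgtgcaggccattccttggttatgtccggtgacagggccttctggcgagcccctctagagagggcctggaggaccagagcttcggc
ARE, chr2:49570216-49570365, score 68, intergenic, nearest to Epc2: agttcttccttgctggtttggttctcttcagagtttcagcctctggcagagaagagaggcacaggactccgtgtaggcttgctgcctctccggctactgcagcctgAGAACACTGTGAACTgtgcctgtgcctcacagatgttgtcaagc
The RFX, CTCF and ARE matches shown differ from the searched letters at 2 positions and the NFI match at 1, and the other 3 are exact. The CTCF example also holds an EBF match, the PHOX2 example a GATA match and the ARE example a NEUROD E-box match. The EBF, AP-1, RFX and NFI examples hold no other motif of the 21 that were sought.

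The members were mostly weak peaks. The authors give each peak a score, a whole number from 1 to 150 whose meaning neither the labels nor the files state. It serves here to rank peaks. Since the calls behind the score also chose the members, the scores are a description. The members scored from 1 to 122 with a median of 31, and 90% of the scores lay between 16 and 58. The distal peaks that replicate 1 shared with replicate 2 had a median of 61, and those found only in replicate 2 had a median of 28. Scores over 60 were reached by 1573 members, 4.12%, against 51.2% of the shared peaks, and 18 members scored over 100. Among the distal peaks of replicate 1 in the lowest decile of score, 77.2% were members (95% Wilson interval 76.4 to 77.9). The share was lower in each higher decile, with 36.0% in the fifth, 5.64% in the eighth and 0.0852% in the highest, where 10 of 11735 peaks were members. Intervals here and below cover counting error only, since all members come from 1 library.

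**Figure D1:**
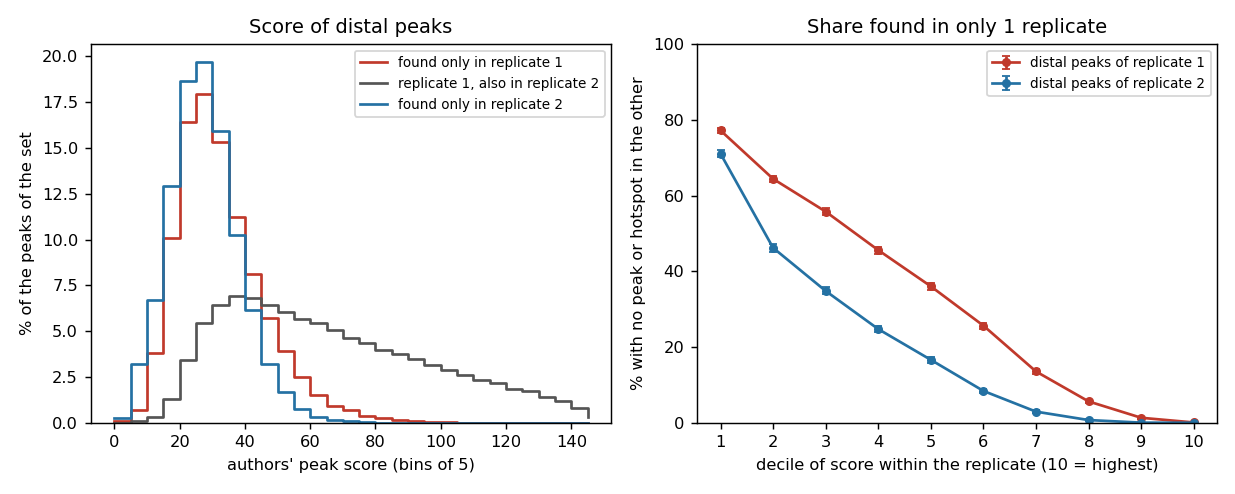
Left, score distributions of the 3 sets of distal peaks in bins of 5. Right, the share of distal peaks found in only 1 replicate by decile of score, with 95% Wilson intervals. Members (red) centre on a score of 31 and the peaks also in replicate 2 (grey) on 61, and the share of members falls from 77.2% to 0.0852% over the deciles.

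The edges of the rule cut through peaks of like score. The 783 members with centres up to 250 bp beyond the TSS limit had a median score of 33, as did the 841 peaks found only in replicate 1 that lay up to 250 bp within it. The 357 members less than 20 bp from a replicate 2 peak or hotspot had a median score of 31, and so did the 349 distal peaks that overlapped one by at most 20 bp. The median distance from a member to the nearest replicate 2 peak or hotspot was 3104 bp. It was under 150 bp for 3216 members (8.43%), under 1 kb for 11515 (30.2%) and under 50 kb for 36502 (95.7%). Within 5 kb of a replicate 2 peak or hotspot lay 23288 members (61.03%).

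Hotspots, the wider regions of raised cutting that the authors called in each library, were narrow around the members. The hotspot under a member had a median width of 165 bp, little more than the 150 bp peak, against 358 bp under shared peaks and 140 bp under the peaks found only in replicate 2. Its median −log10 q-value, a measure of statistical confidence rather than of the amount of cutting, was 2.43 for members. The value 100, the highest the files give, was held by 11.7% of members and 66.5% of shared peaks. The members lay in 37116 hotspots. For 1576 members (4.13%) the hotspot reached far enough to meet a replicate 2 hotspot outside the peak itself. The hotspots of members that met nothing of replicate 2 numbered 35610, and 19 of them were over 1 kb wide.

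The widest of those 19 marked a few loci. The widest, 2800 bp at chr8:13733065-13735864 in Cfap97d2, a gene of the cilia and flagella associated family, held 5 members with scores from 46 to 73. A hotspot of 2332 bp at chr8:26972507-26974838, upstream of Zfp703, which encodes a zinc finger cofactor of transcription, held 4 members scoring 24 to 69. The next, 1974 bp at chr4:133792632-133794605 with Arid1a as the nearest protein-coding gene, held 4 members of low score, 14 to 18. At Btg2, a gene that restrains proliferation, 3 members scoring 38 to 77 shared 1684 bp at chr1:134073694-134075377. A stretch of 1591 bp at chr3:96235204-96236794, next to the histone gene Hist2h3c2, held 6 members scoring 41 to 66. These loci were picked by width after their values were seen.

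Motifs were counted in the 150 bp of each member and in 150 bp windows 1 kb downstream, the flanks, on both strands. The letters were TGANTCA for AP-1, CAGATG for the NEUROD E-box, AGATAA for GATA factors, TCCC and GGGA with 2 bases between for EBF, and TAAT and AATTA with 2 bases between for PHOX2, all without mismatch. NFI was sought as TTGGC and GCCAA with 5 bases between and up to 1 mismatch. Up to 2 mismatches were allowed for RFX, sought as the inverted repeat of GTTGCC, for CTCF, sought by the core of its motif, and for the ARE, sought as AGAACA and TGTTCT with 3 bases between. A PHOX2 match can share bases with the homeodomain letters TAATTA, which were also sought. Of 21 motifs, 12 were held by more members than flanks, with Wilson intervals that did not overlap, 9 had overlapping intervals and 0 were fewer in members. A match of letters is not a measured binding site.

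EBF had the highest ratio to the flanks of the 21 motifs. The motif was in 1414 members, 3.71% (3.52 to 3.90), against 0.377% of flanks, a ratio of 9.82. It was in 2.17% of the shared peaks and in 0.778% of the peaks found only in replicate 2. NFI letters were in 2.67% of members and 0.312% of flanks, and RFX letters in 1.92% and 0.409%. AP-1 was in 6131 members, 16.1% against 4.22% of flanks, close to the 17.1% of the shared peaks and above the 9.96% of the peaks found only in replicate 2. The NEUROD E-box was in 21.7% of members and 11.6% of flanks. None of these 5 motifs was found in 59.4% of members and in 83.9% of flanks.

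CTCF and the ARE were scarce in the members. The CTCF motif was in 436 members, 1.14% (1.04 to 1.25), against 0.705% of flanks. It was in 8.25% of the shared peaks and in 6.32% of the peaks found only in replicate 2. The ARE was in 512 members, 1.34%, and in 1.29% of their flanks, with intervals that overlap. That relation changed with the mismatches allowed: with up to 1 it was in 0.142% of members (0.108 to 0.185) and 0.0629% of flanks, and with up to 3 in 9.30% (9.01 to 9.59) and 11.4%. It was in 3.22% of shared peaks and in 5.78% of the peaks found only in replicate 2. GATA letters were in 8.15% of members and 8.65% of flanks. They were in 9.33% of shared peaks and 11.2% of the peaks found only in replicate 2. Both one-sided sets were weak in score and held these motifs in different shares.

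**Figure D2:**
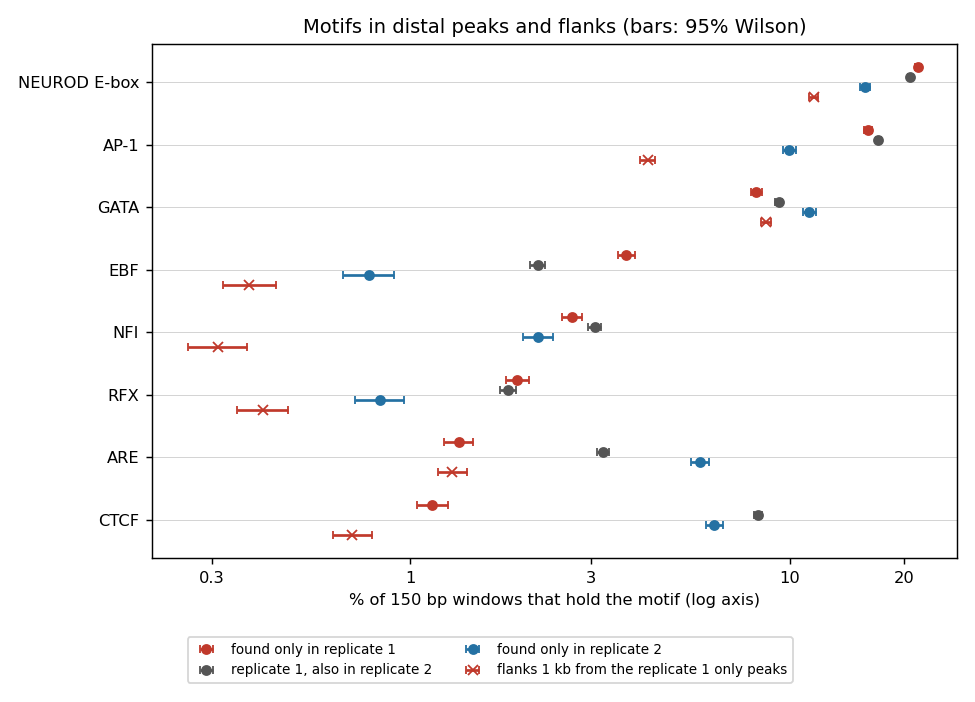
Share of 150 bp windows that hold each of 8 motifs, on a log axis, with 95% Wilson intervals, for the 3 sets of distal peaks and the flanks of the members (crosses). For EBF the members (red, 3.71%) lie right of both other sets, and for CTCF and the ARE (1.14% and 1.34%) they lie left of both, near their flanks.

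The contrast between the sets was also seen at like score. Among members scoring 31 to 40, 3.97% (3.61 to 4.37) held EBF, against 1.76% (1.53 to 2.03) of shared peaks in that range and 0.770% (0.570 to 1.04) of the peaks found only in replicate 2. CTCF was in 1.01% of members in that range, 7.42% of shared peaks and 8.10% of the peaks found only in replicate 2. The ARE was in 1.32%, 4.44% and 7.17%. Within the members, EBF was more frequent at higher score, with 2.21% of those scoring up to 20 and 4.96% of those scoring 61 to 80. NFI was less frequent at higher score, with 3.32% and 1.04%, and so was the ARE, with 1.73% and 0.296%. Shared peaks of these ranges held EBF in 1.04% and 2.32%, the ARE in 4.68% and 2.97%, and NFI in 3.19% and 3.06%. The trends of EBF and the ARE with score were thus not particular to the members. The mean GC content of members was 47.0% (SD 6.28) and 53.0% (SD 5.59) in these ranges. Whether a score means the same in both replicates is not stated. In the range 31 to 40 the mean GC content was 50.1% in members, 48.1% in shared peaks and 46.7% in the peaks found only in replicate 2. The part of GC content in the motif shares was not tested.

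**Figure D3:**
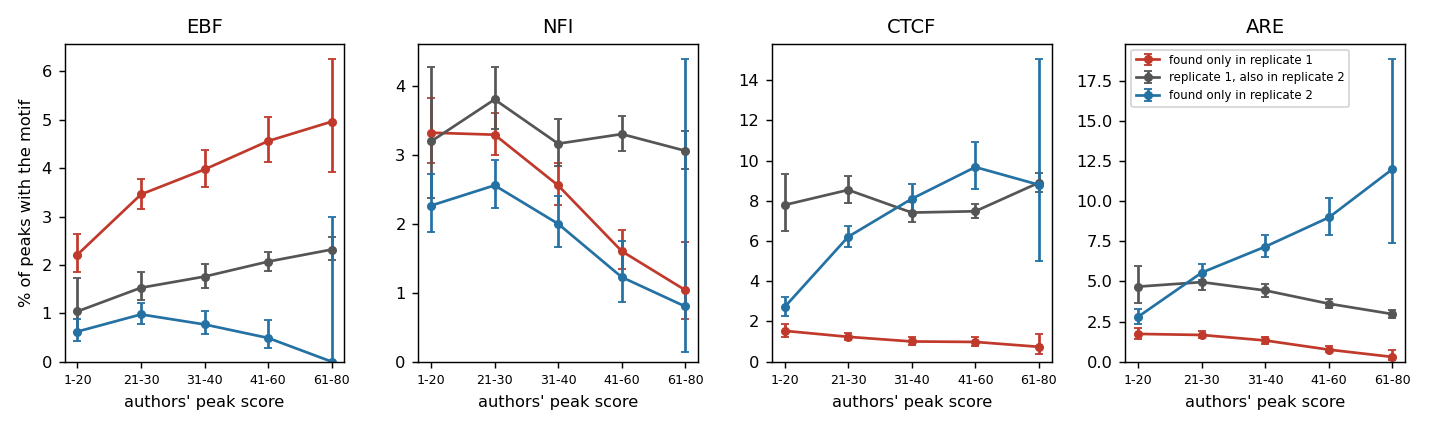
Share of distal peaks that hold EBF, NFI, CTCF and ARE letters by range of the authors' score, with 95% Wilson intervals. At scores of 31 to 40, EBF is in 3.97% of members (red) against 1.76% of shared peaks (grey), while CTCF is in 1.01% against 7.42%.

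Read the other way, the share of weak distal peaks that were members varied with their letters. Of all distal peaks of replicate 1 scoring 21 to 40, 56.9% were members. The share was 74.5% (71.9 to 76.9) of the 1149 such peaks with EBF and 64.3% of those with RFX. It was 53.5% with NFI, 30.1% (27.6 to 32.8) with the ARE and 16.0% (14.3 to 17.9) of the 1646 with CTCF. At scores of 41 to 60 the share was 28.1% over all peaks, 46.3% with EBF, 7.51% with the ARE and 4.89% with CTCF.

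Within the 150 bp the letters of EBF, NFI, RFX and AP-1 gathered at the middle of the members. Of the EBF matches in members, 57.6% had their middle in the central 50 bp, against 36.6% in flanks. The values were 60.1% for NFI, 55.8% for RFX and 46.9% for AP-1, against 44.5%, 40.8% and 33.3% in flanks. CTCF matches were central in 46.7% of cases in members (42.1 to 51.4) and in 64.3% in shared peaks. In flanks of members they were central in 37.5% (32.0 to 43.4), an interval that overlaps that of members. ARE matches in members were central in 35.8% of cases, against 37.8% in flanks, with intervals that overlap.

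The motifs also varied with where a member stood. NFI was in 4.03% of the 14868 members at least 5 kb from any replicate 2 peak or hotspot and in 1.16% of the 11515 members less than 1 kb from one. AP-1 was in 18.2% and 10.98% of these members. The members far from replicate 2 sites had a median score of 27 and the near ones of 33. AP-1 was in 17.6% of members without another member within 12500 bp and in 9.95% of the 794 in clusters of 10 or more.

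By place the members resembled other distal peaks. Introns held 54.5% of members (54.0 to 55.0), against 52.1% of shared peaks and 50.3% of the peaks found only in replicate 2. A share of 40.5% was intergenic and 5.03% was exonic, with 739 members (1.94%) in coding sequence. Place was read at the centre of the peak alone. The median distance to a TSS was 13908 bp, against 12446 bp for shared peaks. The most remote member lay 506816 bp from a TSS, at chr14:117446956-117447105, with a score of 21. Most bases were in lower case, the reference's mark for repeats, in 6.20% of members, 4.38% of shared peaks and 9.38% of the peaks found only in replicate 2. Of the distal peaks within 10 kb of a TSS 30.8% were members, and of those beyond 100 kb 41.3%. At scores of 41 to 60 the order was the other way, with 29.3% and 23.8%. Of intronic and intergenic peaks, 58.2% and 55.1% were members at scores of 21 to 40, and 30.6% and 23.8% at 41 to 60.

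Chromosome by chromosome, the share of distal peaks that were members had a median of 33.0%, with the lowest on chromosome 11 (29.5%) and the highest on chromosome 3 (36.7%). Members numbered from 10.98 per Mb on chromosome 16 to 20.7 per Mb on chromosome 19. The gene with the nearest protein-coding TSS had a promoter peak in both replicates for 80.01% of members, and in replicate 1 alone for 1.86%. A peak within 1 kb of any TSS of that gene was counted. It need not lie at the nearest TSS, and the 2 replicates may have theirs at different ones. For shared peaks these values were 82.5% and 1.64%. Over all 20780 autosomal protein-coding genes they were 60.7% and 2.36%. A promoter peak in replicate 1 alone was thus uncommon over all genes, and not only beside members.

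The 10 members with the highest scores reached into the range of shared peaks. The highest, chr9:107700336-107700485, lay in an intron of Sema3f, a secreted semaphorin that repels growing axons. Its score of 122 was exceeded by 17908 peaks of replicate 1, and its hotspot was 672 bp wide. Replicate 2 had its nearest site 1171 bp away. Next came an intron of Fto, an RNA demethylase, with 112, and an intron of Gm20125 with 112, where a replicate 2 site lay 74 bp away. An intron of Ank, a membrane protein of pyrophosphate transport, held a member scoring 111, and an intron of Lncppara one scoring 109. The member scoring 108 lay in an exon of Rrp36 or the overlapping Gm26904, 6144 bp from the TSS of Cul7, a cullin of ubiquitin ligases. The splicing factor gene Sf3a1 (107), the Notch coactivator gene Maml3 (106) and the calcium channel gene Cacna1c (105) held members in introns. A member scoring 106 lay 12493 bp from the TSS of Cbx3, a heterochromatin protein, and 18470 bp from the nearest replicate 2 site. All 10 hotspots had the −log10 q-value of 100.

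Fewer of the members than of the shared peaks stood in clusters. Joined where neighbouring centres lay at most 12500 bp apart, 15827 members (41.5%) stood alone and 12881 (33.8%) fell into 3201 clusters of at least 3. Of the shared peaks 67.3% fell into such clusters, and of the peaks found only in replicate 2, 21.4%. These shares move with the number of peaks in a set, which was not equalised. The median step from a member to the next was 22060 bp, and 11.6% of steps were under 1 kb. Overlapping calls played a small part, since merging them left 37047 separate places. Clusters of at least 10 numbered 62 and held 794 members.

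The cluster with most members, 32 over 23210 bp at chr11:98072976-98096185, covered the end of Fbxl20, an F-box gene of ubiquitin ligation, and the sequence beyond it. Scores ran from 22 to 72 with a median of 41.5. Replicate 1 had 45 peaks there in all and replicate 2 had 5, and the widest replicate 1 hotspot measured 7538 bp. The second cluster, 26 members at chr1:135532736-135561585, lay in Nav1, a neuron navigator gene of the growing axon's microtubules, with 33 peaks in replicate 1 and 7 in replicate 2. In both clusters a few shared peaks stood among the members, and most of these shared peaks scored higher than the members around them. In the first, 15 members followed one another without a shared peak between them.

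The gene Gse1 held the third cluster and the next, with 21 members at chr8:120283116-120356325 and 20 at chr8:120459776-120516885. Their median scores were the highest of the 8 clusters with most members, at 51 and 61. Here replicate 2 was rich in peaks as well, with 34 and 33 against 54 and 45 in replicate 1. The fifth cluster, 20 members at chr5:144259176-144284865, covered parts of Bri3 and Baiap2l1 and held a member scoring 103. The sixth, 20 members at chr4:133006716-133061005, lay at Ahdc1, an AT-hook gene, and the seventh, 18 members at chr1:86459536-86544305, at Ptma, which encodes prothymosin alpha, and Pde6d.

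3 clusters tied at 17 members. The one with the highest summed score, taken as the eighth, was free of any call in replicate 2 within its span. Its 17 members filled 8050 bp of Cfap97d2 at chr8:13731616-13739665, with scores from 30 to 84 and a median of 44. Replicate 1 had 17 peaks and 11 hotspots there, and replicate 2 had 0 peaks and 0 hotspots, while shared peaks stood on either side. The widest of the 11 hotspots, at 4530 bp, ran on to meet a replicate 2 call beyond the cluster. A run of 12 more members without a replicate 2 distal peak between them lay nearby at chr8:13695456-13701885. Lower-case bases made up 19.2% of the cluster. Of the clusters tied with it, that at Vav2, chr2:27409396-27436645, had a median score of 30 and 14 peaks of replicate 2, and that nearest to Arid1a had 0.

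**Figure D4:**
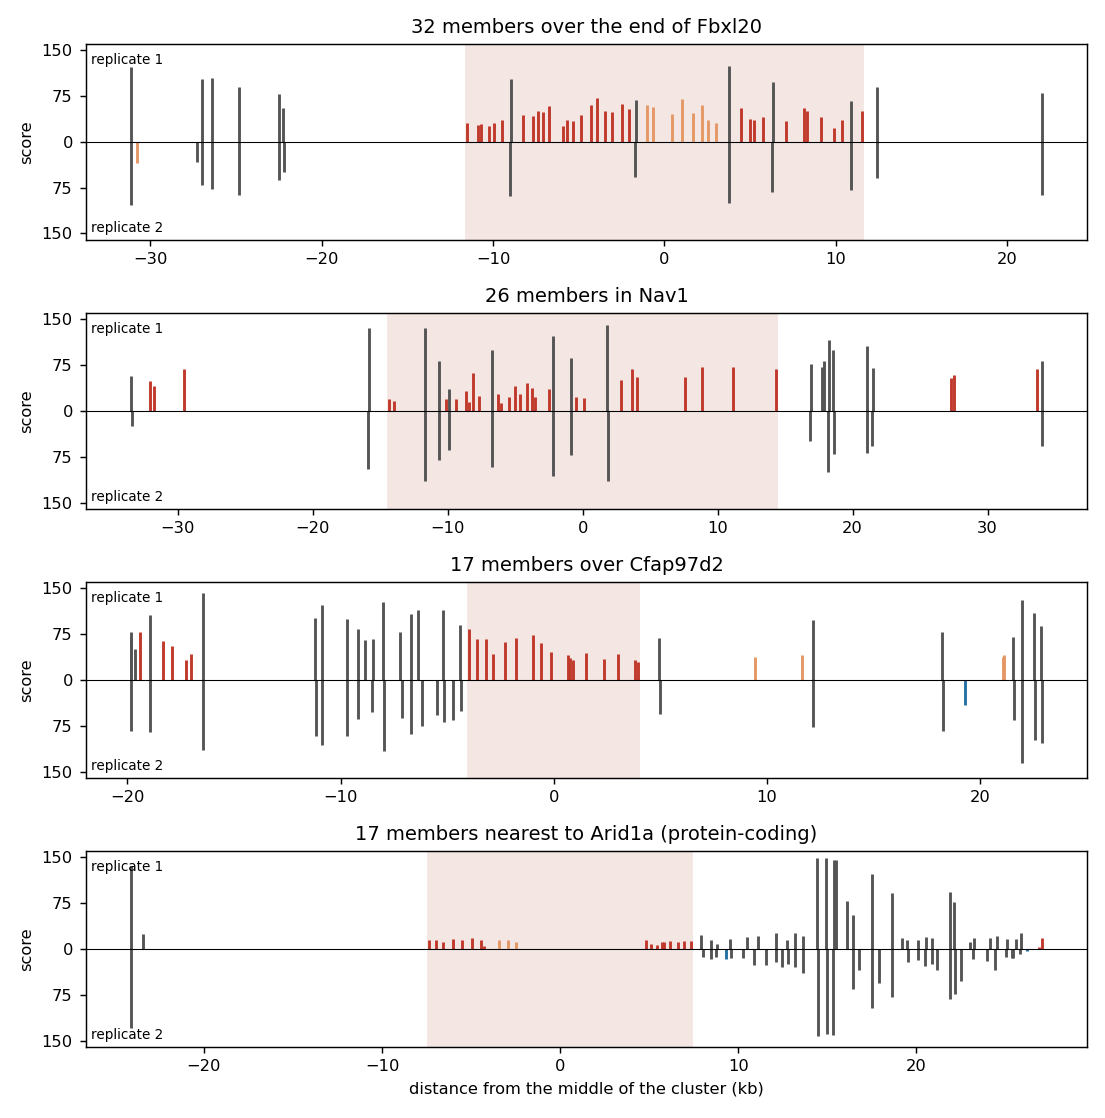
Peaks of replicate 1 (up) and replicate 2 (down) by distance from the middle of 4 clusters, with the score as height. Members are red, peaks also found in the other replicate grey, peaks found only in 1 replicate near a TSS orange and distal peaks found only in replicate 2 blue, and the shaded span is the cluster. In the clusters over Cfap97d2 and near Arid1a the shaded span holds 0 peaks of replicate 2.

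Runs were counted as successive distal peaks of either replicate that were all members. Of 24220 runs, 15809 held 1 member and 17 held at least 10. The 2 longest, of 17 members, were the Cfap97d2 cluster and chr4:133791476-133806325, which overlaps no protein-coding gene and holds the small nuclear RNA gene Gm25270. The nearest protein-coding TSS was that of Arid1a, a subunit of a chromatin remodeller. The second was unlike the first: its scores ran from 5 to 18 with a median of 13, and 49.4% of its bases were in lower case. Many of the sites that both replicates shared just beyond it had low scores too, as the map of the cluster shows. Other long runs held 15 members at the end of Fbxl20, 14 at Lmbrd1, 13 beside Hist2h3c2 and 12 each upstream of Zfp703 and at Trim67. At Trim67 1 replicate 1 hotspot was 6520 bp wide and the median score was 18. The widest hotspot of members that met nothing of replicate 2 was 2800 bp, so this one was not among them. At Dpp10, an auxiliary subunit of potassium channels, 11 members were spread over 829050 bp, so that run was sparse. The runs outside the 8 clusters were picked by length after their values were seen.

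On the scale of 1 Mb the share of members varied around the overall one. In the 1759 windows with at least 10 distal peaks of replicate 1, the median share was 33.3%, and 90% of windows lay between 20% and 56.3%. At least 60% of distal peaks were members in 74 windows, 4.21% of them. The window chr13:65000001-66000000 had 10 of 10, with a median score of 15.5, and there the 6 distal peaks of replicate 2 were also found in that replicate alone. In chr19:54000001-55000000, which holds the adrenergic receptor gene Adra2a, 17 of 19 were members, and 11 of 14 replicate 2 peaks were one-sided too. In chr15:14000001-15000000, which holds no protein-coding gene, 12 of 14 were members with a median score of 37. That median was the highest of the 5 windows with the largest shares. Cdh6, a cadherin gene, had the nearest protein-coding TSS, 1312136 bp from a hotspot of 1504 bp in this window. In chr3:140000001-141000000 the count was 9 of 11, and in chr10:92000001-93000000, at Nedd1 and Cfap54, 19 of 24. The lowest share, 1 of 26, was in chr11:48000001-49000000.

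Members lay near most genes. Of 20780 autosomal protein-coding genes, 15411 (74.2%) had at least 1 member within 50 kb of the gene body. The genes nearest to most members were mostly long, and length was not adjusted for. Auts2, a gene of neuronal development, was nearest to 83 members, the RNA-binding protein gene Rbms3 to 62 and the calmodulin-binding activator gene Camta1 to 60. Gse1 followed with 58 and a member scoring 99. The teneurin genes Tenm3 and Tenm4, adhesion proteins that help wire neurons, had 56 and 53. Gm597 had 53, the homeobox gene Zfhx3 53, the zinc finger gene Zfp608 51 and the sorting receptor gene Sorcs1 50. Within 50 kb of these genes the share of distal peaks that were members ran near the average for Gse1 (27.96%, 59 of 211) and higher for Sorcs1 (51.1%, 23 of 45).

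A share of at least 60% was found at 231 of 8217 genes with at least 10 distal peaks, 2.81%. Around Dpp10 all 10 distal peaks were members and replicate 2 had 0. Around Zfp703 the count was 15 of 16, with 1 distal peak in replicate 2. Tecr, an enzyme of fatty acid elongation, had 9 of 10, Gm21798 9 of 10, the cell surface gene Csmd2 15 of 17 and the apolipoprotein L gene Apol9a 10 of 12. Speer4d and Ulbp1, a ligand of natural killer cell receptors, had 9 of 11 each, and the neuronal adhesion gene Negr1 and A730071L15Rik 8 of 10 each, a count that Plac9a shared. At Csmd2, 13 of the 15 distal peaks of replicate 2 were also one-sided, so both lists differed there. At 5 of these 10 genes a promoter peak was called in both replicates, Zfp703 and Tecr among them, and at Dpp10 and Negr1 in neither.

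Lists of genes by role ran from below to above the average of all genes. Over all protein-coding genes, 29.7% of pairs of a gene and a distal replicate 1 peak within 50 kb involved a member. The list of growth factors and their receptors had 34.7% (296 of 854 pairs), with Tgfb2, a transforming growth factor, at 26 of 44 and Gfra1, a receptor for glial-derived neurotrophic factors, at 23 of 52. Fgfr2 had 76 of 244, over a gene model of 2961 kb. The list of EBF, NFI and RFX factor genes had 33.9%, with Nfib at 20 of 62, Nfic at 14 of 29 and Ebf3 at 12 of 30, where the highest member scored 100. Collagen and matrix genes had 33.5%, led by Col4a2, a basement membrane collagen, with 20 of 38. Motor neuron genes had 32.9%, with the transcription factor Foxp1 at 24 of 48 and the receptor kinase Ret at 9 of 17, with a member scoring 89. Axon guidance genes had 30.8%, among them the netrin receptor Unc5c with 30 of 56, against 2 one-sided peaks in replicate 2. Ion channel genes had 30.3%, with Cacna1c at 36 of 96.

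Sympathetic and neuroblastoma genes had 30.2%, with the receptor kinase Alk at 33 of 99. The other lists lay below the 29.7% of all genes. Hox genes had 29.0%, and 17 of 39 (43.6%) had a member within 50 kb, against 74.2% of all genes. The Hox list also had few distal peaks, with 183 pairs over 39 genes against 205665 over all 20780. Steroid receptor and cofactor genes had 28.9%, with Ncoa2, a coactivator of nuclear receptors, at 10 of 22. Pan-neuronal genes had 28.3%, with the synaptic vesicle protein gene Syt1 at 37 of 74. Neural crest and mesenchymal genes had 27.0% and AP-1 genes 24.4%. Androgen response genes had 22.5%, 103 of 457 pairs, with Stk39 at 11 of 24, Tpd52 at 10 of 25 and Map7 at 9 of 20. Glial genes had the lowest, 22.2%. Genes of a list can share peaks, so the pairs are not independent.

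**Figure D5:**
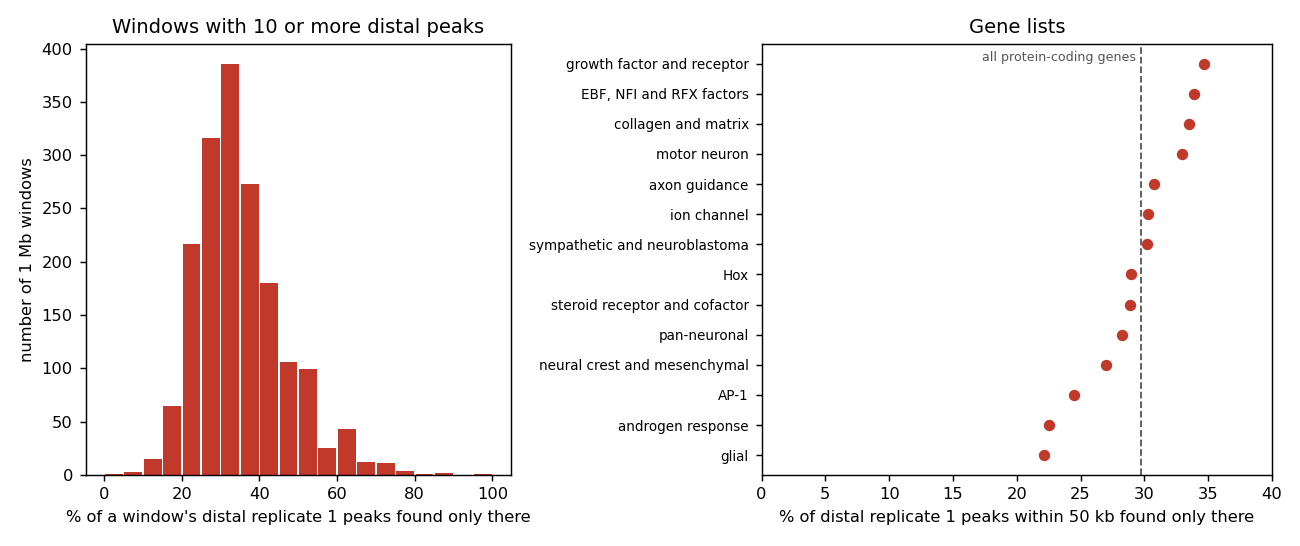
Left, number of 1 Mb windows by the share of their distal replicate 1 peaks that are members. Right, that share over the distal peaks within 50 kb of the genes of each list, with the dashed line at 29.7% for all protein-coding genes. Windows centre on 33.3%, and the lists run from 22.2% for glial genes to 34.7% for growth factors and receptors.

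Promoter peaks were also counted at markers of cell types. Over all 20780 autosomal protein-coding genes, 60.7% had one in both replicates. All 9 pan-neuronal markers sought had one in both. So did 4 of 6 motor neuron markers (Isl1, Chat, Slc18a3 and Lhx3, but not Mnx1 or Slc5a7) and 3 of 5 sympathetic ones. These last 2 counts lie near the share of all genes and do not by themselves tell the cell type. Of 4 glial markers only Gfap had a peak and of 3 fibroblast markers only Col1a1, in both replicates. Th, the enzyme of catecholamine synthesis, had a promoter peak in replicate 2 alone. It was the one marker that differed between the replicates.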

How the data were processed

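DNase-seq peaks and hotspots of 2 MN1 libraries were used. Per the deposited listings, they were derived from each library's filtered alignment to mm10 and were not pooled. The aligner and the caller, not given in the sources used here, are unknown. The score of each peak, 1 to 150, was deposited by the authors and served only to rank peaks. For hotspots the authors deposited a −log10 q-value. A second hotspot column, a score the authors deposited, was not used.

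Entries repeated in the list of replicate 1 (15) were counted once. Peak centres were set against all GENCODE M21 TSSs, and overlap meant at least 1 bp. Motifs were sought in GRCm38 sequence. The named sites were the 10 members with the highest score, the 8 clusters with most members, the 10 genes nearest to most members, the 10 genes with the largest share of members among at least 10 distal peaks within 50 kb, the genes with most members in each of 14 lists (up to 3 are printed, and some results are not reported here), the 5 windows with the largest share, and, for 7 motifs, the highest member that holds the motif, chromosome 18 and untranslated regions left out. The members, lists and motifs were chosen with earlier results of these data known. With 1 library on each side no test over samples exists, so shares have 95% Wilson intervals. Distances, overlaps and motif searches were tested on simulated data. Python 3.11.15, numpy 2.4.6, pandas 2.3.3 and scipy 1.17.1 were used. Alternatives covered the overlap, the TSS limit, the score, gaps, windows, motif mismatches and gene distance.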

Additional observations from a re-analysis of the deposited data

Results flagged for a closer look

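Some peaks outside the 19 autosomes met the rest of the rule. On chromosome X, 747 of 2259 distal peaks of replicate 1 (33.1%) had no peak or hotspot of replicate 2, with a median score of 22. On chromosome Y the count was 12 of 60. On sequences not placed on a chromosome, where no TSS distance was applied, 80 of 250 peaks (32.0%) were found only in replicate 1, with a median score of 39.5 and a highest score of 122.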

How the results depend on the processing

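The count of 38156 members stayed within 1.5 times under 7 alternatives, from 29943 with no replicate 2 site within 500 bp to 44422 with a TSS limit of 1 kb. Among the upper 50% of peaks by score, 3069 were members: 62.3% of them were intronic and 12.3% lay in clusters of at least 3. With protein-coding models alone 49.4% were intronic. The clustered share was 17.0% with gaps up to 5 kb and 54.1% with 25 kb, and windows of 500 kb had a median of 32.6%. The nearest-TSS rule gave 9675 genes in place of 15411. In the upper 50% by score the motif shares were 16.6% for AP-1, 4.99% for EBF, 1.69% for RFX, 1.08% for NFI, 25.3% for the NEUROD E-box, 0.782% for CTCF and 0.489% for the ARE. Without members within 500 bp of replicate 2 sites they were 17.8% for AP-1, 4.05% for EBF, 2.12% for RFX, 3.11% for NFI and 22.7% for the NEUROD E-box. With 1 mismatch fewer, RFX was in 0.6998%, NFI in 0.202%, CTCF in 0.134% and the ARE in 0.142%, and with 1 more in 5.81%, 14.1%, 8.66% and 9.30%. The ARE was in 0.0629% of flanks with 1 fewer and 11.4% with 1 more, so members lay above flanks at the first setting and below at the second. The cause of these shifts was not tested, other than the change in letters itself. Leaving out a replicate gives no value: without replicate 2 the rule cannot be applied, and without replicate 1 there are no members. No paired analysis was possible because both libraries belong to 1 group. Depth is unknown, so weak sites missed in replicate 2 cannot be told from sites absent there.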
